A study of Homo sapiens with 11 samples.

Results

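The aquaporins are membrane channels that carry water and, in some members, glycerol and other small solutes. 10 aquaporin genes, AQP1 to AQP9 and AQP11, were taken by name from the RNA-seq data of HK2 cells, out of 19645 protein-coding genes that matched the hg19 annotation and 58288 genes in all. HK2 is an established human line of proximal tubular epithelial cells, so it is a single line and stands for no kidney as a whole. All samples shared 1 culture condition, DMEM-F12 medium with FBS, penicillin-streptomycin and a trace of DMSO. ChIP-seq measured H3K4me3, H3K27ac and H3K27me3 in 2 replicates of each mark, and RNA-seq measured RNA depleted of ribosomal RNA in 2 libraries. The sources do not say whether replicates came from separate cultures, so the spread between them may be technical. Input and HiChIP samples were not analysed here.

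Aquaporins assemble as tetramers in the membrane, and each subunit is a pore of its own. Orthodox members such as AQP1, AQP2, AQP4 and AQP5 pass mainly water, aquaglyceroporins such as AQP3, AQP7 and AQP9 also pass glycerol, and AQP11 is an unorthodox member of intracellular membranes. In the nephron, AQP1 is the main water channel of the proximal tubule and the thin descending limb, AQP7 lies in the straight proximal tubule, and AQP2, AQP3 and AQP4 serve the collecting duct, where vasopressin moves AQP2 to the apical membrane. H3K4me3 marks promoters, H3K27ac marks active promoters and enhancers, and H3K27me3 marks regions under Polycomb repression.

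In short, RNA of these channels was low in both libraries. In bulk RNA, few expressing cells and little RNA in every cell cannot be told apart. Only AQP11 of the 10 genes reached an FPKM (fragments per kilobase of transcript, scaled to the mapped fragments, a level per length) of 1 in each library, against 58.8% of all 19645 protein-coding genes. AQP11 was also the one member of the 10 with H3K27ac peaks in each replicate near a TSS (transcription start site). AQP4 carried both H3K4me3 and H3K27me3 at internal TSSs, AQP5 carried H3K27me3 alone, and AQP2, AQP8 and AQP9 had no peak within 1 kb of a TSS in any of the 6 peak lists.

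The promoters of 5 members are shown because they differ in the marks over them, from H3K4me3 or H3K27me3 to both and to none. No RefSeq promoter of a member lay under an H3K27ac peak. They are RefSeq sequences of GRCh38.p14, from 250 bases before to 50 bases after a gene start. Of the 10 members, 8 had 11 such promoters in all, and AQP6 and AQP11 had none. Each of the 11 was found once, letter for letter, in GRCh37, and hg19 positions come from that match. In the first pair of sequences capitals mark the word TATAAA, which was searched on both strands and occurred in 11.5% of 35116 RefSeq promoters. AQP3 (chr9:33447542-33447841, minus strand) lay within H3K4me3 peaks of both replicates over all 300 bases, and AQP2 (chr12:50344270-50344569, plus strand) lay under no peak.
AQP3: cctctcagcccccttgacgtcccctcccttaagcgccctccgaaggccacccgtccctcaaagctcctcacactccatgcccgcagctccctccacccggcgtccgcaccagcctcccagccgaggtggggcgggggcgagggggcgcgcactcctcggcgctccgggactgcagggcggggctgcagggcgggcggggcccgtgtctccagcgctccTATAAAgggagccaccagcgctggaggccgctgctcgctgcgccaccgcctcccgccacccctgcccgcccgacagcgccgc
AQP2: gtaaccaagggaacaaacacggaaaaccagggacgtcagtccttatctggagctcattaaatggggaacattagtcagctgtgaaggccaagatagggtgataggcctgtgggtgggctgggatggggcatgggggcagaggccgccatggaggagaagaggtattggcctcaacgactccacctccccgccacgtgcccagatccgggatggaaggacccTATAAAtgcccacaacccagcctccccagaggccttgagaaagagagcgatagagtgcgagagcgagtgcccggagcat
In the next 3, capitals mark bases under a peak. For AQP1 (chr7:30951218-30951517, plus strand) they are the 115 bases in the H3K4me3 peak of replicate 2. For AQP5 (chr12:50355405-50355704, plus strand) they are the 143 bases in the H3K27me3 peak of replicate 1. For the internal promoter of AQP4 (chr18:24442825-24443124, minus strand) they are the 84 bases under the H3K4me3 peak of replicate 2, which lie under the peaks of H3K4me3 replicate 1 and of both H3K27me3 replicates too.
AQP1: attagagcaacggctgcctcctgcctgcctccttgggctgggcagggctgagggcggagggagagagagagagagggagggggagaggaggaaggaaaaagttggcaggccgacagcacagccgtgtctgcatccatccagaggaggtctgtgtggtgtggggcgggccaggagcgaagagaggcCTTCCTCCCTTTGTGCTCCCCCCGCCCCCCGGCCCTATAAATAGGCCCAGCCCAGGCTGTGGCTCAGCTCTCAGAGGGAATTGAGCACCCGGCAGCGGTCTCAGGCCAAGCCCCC
AQP5: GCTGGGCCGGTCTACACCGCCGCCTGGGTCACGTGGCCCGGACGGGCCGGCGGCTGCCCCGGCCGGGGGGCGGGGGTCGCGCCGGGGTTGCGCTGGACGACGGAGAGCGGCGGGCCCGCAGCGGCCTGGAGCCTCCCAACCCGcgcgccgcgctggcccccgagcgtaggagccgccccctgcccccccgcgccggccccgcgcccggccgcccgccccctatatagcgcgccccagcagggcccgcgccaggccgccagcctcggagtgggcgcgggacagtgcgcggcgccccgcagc
AQP4: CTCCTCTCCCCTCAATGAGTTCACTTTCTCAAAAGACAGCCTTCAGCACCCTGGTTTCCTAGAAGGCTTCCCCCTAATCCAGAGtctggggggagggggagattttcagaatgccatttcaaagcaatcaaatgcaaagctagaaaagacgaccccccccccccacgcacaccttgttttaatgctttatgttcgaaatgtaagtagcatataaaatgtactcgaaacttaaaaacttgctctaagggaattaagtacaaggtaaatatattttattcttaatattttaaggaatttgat

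These promoters differed widely in CpG dinucleotides. The median RefSeq promoter held 14. AQP5 held 49, more than 98.4% of promoters, with a GC content of 84%. AQP3 held 31, more than 79.3% of promoters. The remaining 6 members with a sequence were below the median: AQP2 held 11, AQP1 held 10, AQP7 held 8, and AQP9, AQP8 and AQP4 held 1 to 6 in their 6 promoters. The CpG-rich promoters were those of AQP3, under H3K4me3 peaks of both replicates, and of AQP5, under the H3K27me3 peak of replicate 1 over 143 bases and of replicate 2 over 0. TATAAA was present in the promoters of AQP1, AQP2 and AQP3 and in the internal AQP4 promoter. CCAAT, searched on both strands and present in 34.6% of RefSeq promoters, was present in those of AQP2, AQP7 and AQP9 and in the upstream pair of AQP4. The cyclic AMP response word TGACGTCA, present in 1.85% of RefSeq promoters on either strand, was in none of the 11. A match or its absence describes these letters in this window and says nothing of a factor.

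Both libraries were of similar size, with 5.67 and 5.52 Gb of aligned bases as recovered from coverage and FPKM, and the median protein-coding gene had a mean FPKM of 3.32. The peak lists of each mark differed between replicates. For H3K4me3, replicate 1 held 28615 peaks of a median 1194 bp and replicate 2 held 73505 peaks of a median 434 bp, so a peak in replicate 2 alone came from the longer list of narrower peaks. For H3K27ac, replicate 1 covered 107 Mb and replicate 2 covered 38.9 Mb, and for H3K27me3 they covered 88.3 and 26.7 Mb, so a peak of these marks in replicate 1 alone came from the list of wider cover. Peaks were given as limits with no height, so how many reads support any one of them is unknown. The paper does list, for each replicate, the share of mapped reads within peaks. That share was lower in replicate 2 than in replicate 1 for H3K27ac and H3K4me3. For H3K27me3 it was similar between replicates and below the shares of the other marks. A peak missing from a list, above all from H3K27ac replicate 2 or from H3K27me3, therefore does not show that the mark was absent.

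**Figure D1:**
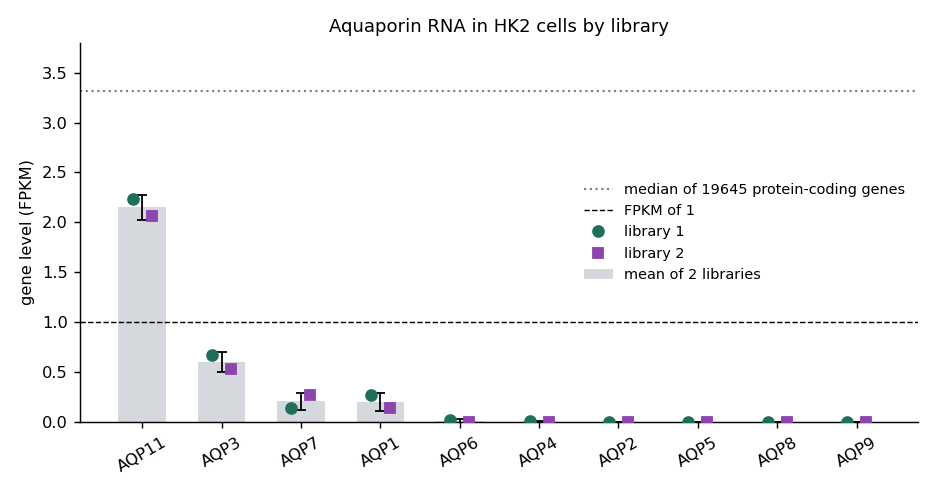
FPKM of the 10 aquaporin genes in each RNA-seq library of HK2 cells, ordered by mean. Bars are means, whiskers are SDs (n = 2), the dashed line is an FPKM of 1 and the dotted line is the median of 19645 protein-coding genes. AQP11 alone lies above the dashed line, at 2.23 and 2.06, and all 10 lie below the dotted line.

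AQP11 (ENSG00000178301, chr11:77300436-77321401, plus strand) encodes the unorthodox aquaporin of the endoplasmic reticulum, whose loss in mice leads to cystic kidneys. Its FPKM was 2.23 in library 1 and 2.06 in library 2, a mean of 2.15 ± 0.122 (SD, n = 2). That level was above those of 45.5% of protein-coding genes. It rested on 27.1 and 24.3 kb of aligned bases. Nearly all of it was assigned to the coding transcript ENST00000313578, with 98.8% in library 1 and 98.7% in library 2.

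Coverage along that transcript was uneven. In library 1, exon 1 (977 nt) had a mean coverage of 22.7 reads per base, exon 2 (117 nt) had 15.4 and exon 3 (1058 nt) had 2.85. In library 2 the values were 16.6, 14.6 and 5.94. Coverage therefore declined from the first to the last exon in both libraries. CLNS1A spans AQP11 on the opposite strand, at an FPKM of 18.2 and 18.5, but shares 0 bp of exon with it. The strand of the RNA libraries is not given in the sources used here, so reads of the strands cannot be told apart.

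**Figure D2:**
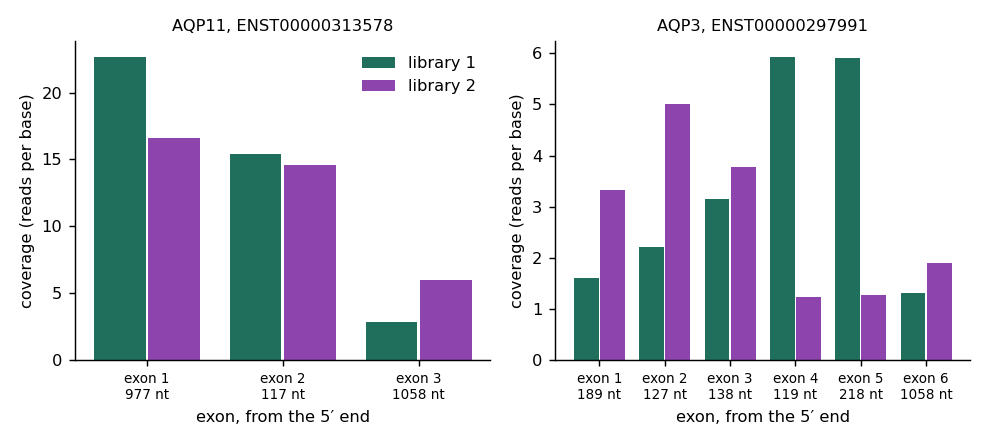
Mean coverage (reads per base) of each exon of the leading coding transcript of AQP11 (left) and AQP3 (right) in libraries 1 and 2, numbered from the 5′ end with lengths in nt. AQP11 coverage declines from exon 1 to exon 3 in both libraries. In AQP3, exons 4 and 5 are the best covered in library 1 and exon 2 is the best covered in library 2.

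Of the aquaglyceroporins, AQP3 and AQP7 had signal in both libraries and AQP9 in neither. AQP3 (ENSG00000165272, chr9:33441154-33447594, minus strand), a basolateral channel of collecting duct cells and of many other epithelia, had an FPKM of 0.672 in library 1 and 0.528 in library 2 (0.6 ± 0.102, SD, n = 2). Both values lay below both AQP11 values, and the AQP11 mean was 3.58-fold that of AQP3. The coding transcript ENST00000297991 took 62.3% of AQP3 in library 1 and 78.2% in library 2. The retained-intron transcript ENST00000494313, which starts inside the gene, took 37.2% and 21.8%. Coverage of the 6 exons of ENST00000297991 ran from 1.31 to 5.94 reads per base in library 1 and from 1.22 to 5.01 in library 2, and all 6 exons were covered in both.

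AQP7 (ENSG00000165269, chr9:33383177-33402680, minus strand), the glycerol channel of adipocytes and of the straight proximal tubule, had an FPKM of 0.146 and 0.268 (0.207 ± 0.0866, SD, n = 2). These values stood on only 1.07 and 3.14 kb of aligned bases. The libraries differed in the transcripts to which signal was assigned. ENST00000379506 took 60.5% in library 1 and 0.685% in library 2, while ENST00000379507 took 0% and 56.2%. ENST00000537089, annotated from the upstream start, took 39.5% and 23.9%. Its exons 1 and 2 had a coverage of 0 in both libraries, so its share shows no signal at that start. ENST00000379506 and ENST00000379507 start inside the gene, 7.28 and 7.27 kb downstream of ENST00000297988. The gene has near-identical pseudogene copies, and AQP7P1, AQP7P2, AQP7P3, AQP7P4 and AQP7P5 were all listed at 0. How reads shared between copies were divided is not given in the sources used here, so the AQP7 level is uncertain.

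AQP9 (ENSG00000103569, chr15:58430368-58478110, plus strand), the glycerol and urea channel of liver, was listed at 0 in both libraries. It lies inside ALDH1A2, a retinoic acid synthesis gene on the opposite strand, which had an FPKM of 0.224 and 0.0948.

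Among the water channels, AQP1 was the only one of AQP1, AQP2, AQP4, AQP5 and AQP8 with signal in both libraries. AQP1 (ENSG00000240583, chr7:30951468-30965132, plus strand) had an FPKM of 0.269 in library 1 and 0.142 in library 2 (0.205 ± 0.0898, SD, n = 2). Its level was above those of 32.5% of protein-coding genes. The aligned bases amounted to 1.8 and 1.95 kb. The transcript from the main gene start, ENST00000311813, was listed at 0 in both libraries. The signal was assigned to others: ENST00000409611 took 97.2% in library 1 and 0% in library 2, and ENST00000441328 took 2.78% and 100%. In the annotation used for quantification they start 9.8 and 9.61 kb downstream of ENST00000311813, although the hg19 annotation places the start of ENST00000441328 at 30951670, near the main gene start. The libraries covered different exons as well. Exons 2 and 3 of ENST00000409611, of 165 and 81 nt, had 4.47 and 6.97 reads per base in library 1, and its exon 1 had 0.235. Exon 1 of ENST00000441328 had 0 in both libraries. The last exon of ENST00000441328, of 2067 nt, had 0.87 in library 2. A protein-coding gene on the same strand, ENSG00000250424, shares 27.9% of AQP1 exon bases and was listed at 0.

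AQP4 (ENSG00000171885, chr18:24432007-24445735, minus strand), a basolateral water channel of principal cells best known from brain astrocytes, had an FPKM of 0.01 in library 1 and was listed at 0 in library 2. Its 0.3 kb of aligned bases all fell in the last exon, of 4452 nt, of ENST00000383168. AQP6 (ENSG00000086159, chr12:50360977-50370922, plus strand), an anion-permeable channel of intercalated cell vesicles, had 0.0241 in library 1 and was listed at 0 in library 2. Its 0.701 kb fell in exon 4 of the retained-intron transcript ENST00000489786, and its coding transcripts were at 0 in both. In each gene the signal was thus confined to 1 exon of 1 library.

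AQP2 (ENSG00000167580, chr12:50344520-50352661, plus strand), the vasopressin-regulated channel of principal cells, was listed at 0 in both libraries. AQP5 (ENSG00000161798, chr12:50355655-50359465, plus strand), known from secretory glands, was listed at 0 as well. So was AQP8 (ENSG00000103375, chr16:25227052-25240253, plus strand), a channel for water and hydrogen peroxide. With AQP9 these made 4 of 10 members at 0 in both libraries, against 19.6% of protein-coding genes.

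By mean level the order was AQP11, AQP3, AQP7, AQP1, AQP6, AQP4 and then the 4 genes at 0. The 2 libraries kept AQP11 apart from AQP3, AQP3 apart from AQP7, and AQP1 apart from AQP6. The ranges of AQP7 and AQP1 overlapped, as did those of AQP6 and AQP4, and AQP4 reached 0 in library 2. All 10 means lay below the median protein-coding gene, and no test between groups was possible with 1 condition.

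H3K4me3 peaks lay within 1 kb of an annotated TSS in both replicates for 5 of 10 members, AQP3, AQP4, AQP6, AQP7 and AQP11, against 70.3% of protein-coding genes. H3K27ac did so for 1 of 10, AQP11, against 55.0%. H3K27me3 did so for 2 of 10, AQP4 and AQP5, against 11.4%. H3K4me3 together with H3K27me3 did so for 1 of 10, AQP4, against 7.02%. No peak in any of the 6 lists was found for 3 of 10, AQP2, AQP8 and AQP9, against 15.1%. The share of members with H3K27ac was the farthest below its background among the 3 marks, as a description of 10 genes without a test, and the H3K4me3 count rose to 6 with peaks of either replicate.

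**Figure D3:**
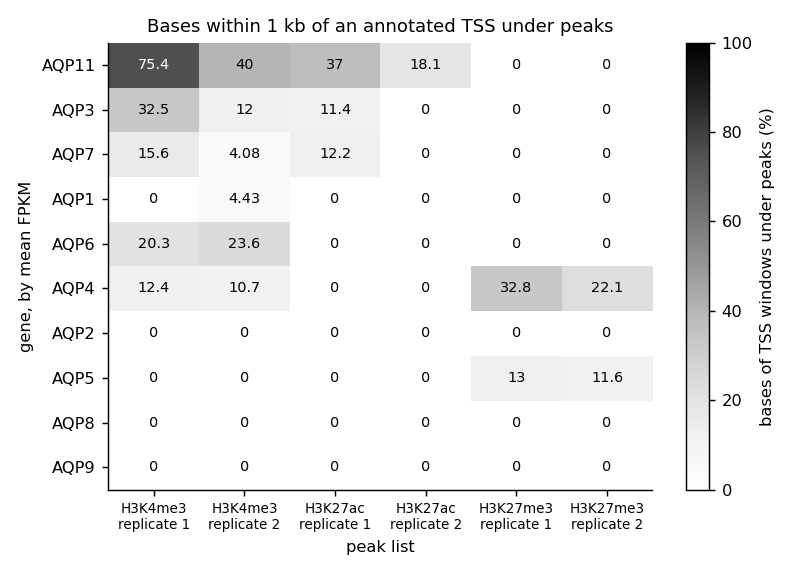
Percent of the bases within 1 kb of any annotated TSS of each gene that lie under peaks, by mark and replicate, with genes in order of mean FPKM. AQP11 is filled in both H3K4me3 and both H3K27ac lists, AQP4 in both H3K4me3 and both H3K27me3 lists, and AQP2, AQP8 and AQP9 are at 0 throughout.

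At AQP11, H3K4me3 peaks at chr11:77299739-77301671 in replicate 1 and chr11:77300351-77301374 in replicate 2 covered 75.4% and 40% of the TSS windows. They included both annotated TSSs, at 77300436 and 77300998. H3K27ac peaks at chr11:77300174-77301121 and chr11:77300618-77301082 covered 37% and 18.1%, and shared 465 bp around the start of the coding transcript. A further H3K27ac peak of 2294 bp, at chr11:77312606-77314899, lay 12170 bp inside the gene in replicate 1 and in no peak of replicate 2. The nearest H3K27me3 peak of replicate 1 was 47.8 kb from the gene start.

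At AQP3, an H3K4me3 peak covered the start in both replicates, at chr9:33446730-33448056 and chr9:33447399-33447889, with 491 bp in common. H3K27ac was called in replicate 1 only, at chr9:33446410-33446973, beginning 621 bp inside the gene. In replicate 2 the nearest H3K27ac peak was 58.2 kb away.

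AQP7 met the H3K4me3 criterion with peaks at different TSSs. In replicate 1 they lay at chr9:33394902-33395684, over the internal TSSs at which ENST00000379506 and ENST00000379507 start, and at chr9:33391070-33391514. In replicate 2 the peak at a TSS was chr9:33402494-33402815, over the upstream gene start. No base was shared between replicates. When a shared base was required, a criterion added after the data were seen, 4 of 10 members had H3K4me3 in both replicates. H3K27ac peaks at chr9:33390854-33391365 and chr9:33391591-33392045 were present in replicate 1 only.

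AQP1 had no H3K4me3 peak in replicate 1, where the nearest was 139 kb from the gene start. Replicate 2 had one of 292 bp at chr7:30951403-30951694, over the main start, and another of 460 bp at chr7:30957894-30958353, inside the gene. Neither replicate had an H3K27ac or H3K27me3 peak at the gene. The nearest H3K27ac peaks were 65.6 and 316 kb from the start.

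**Figure D4:**
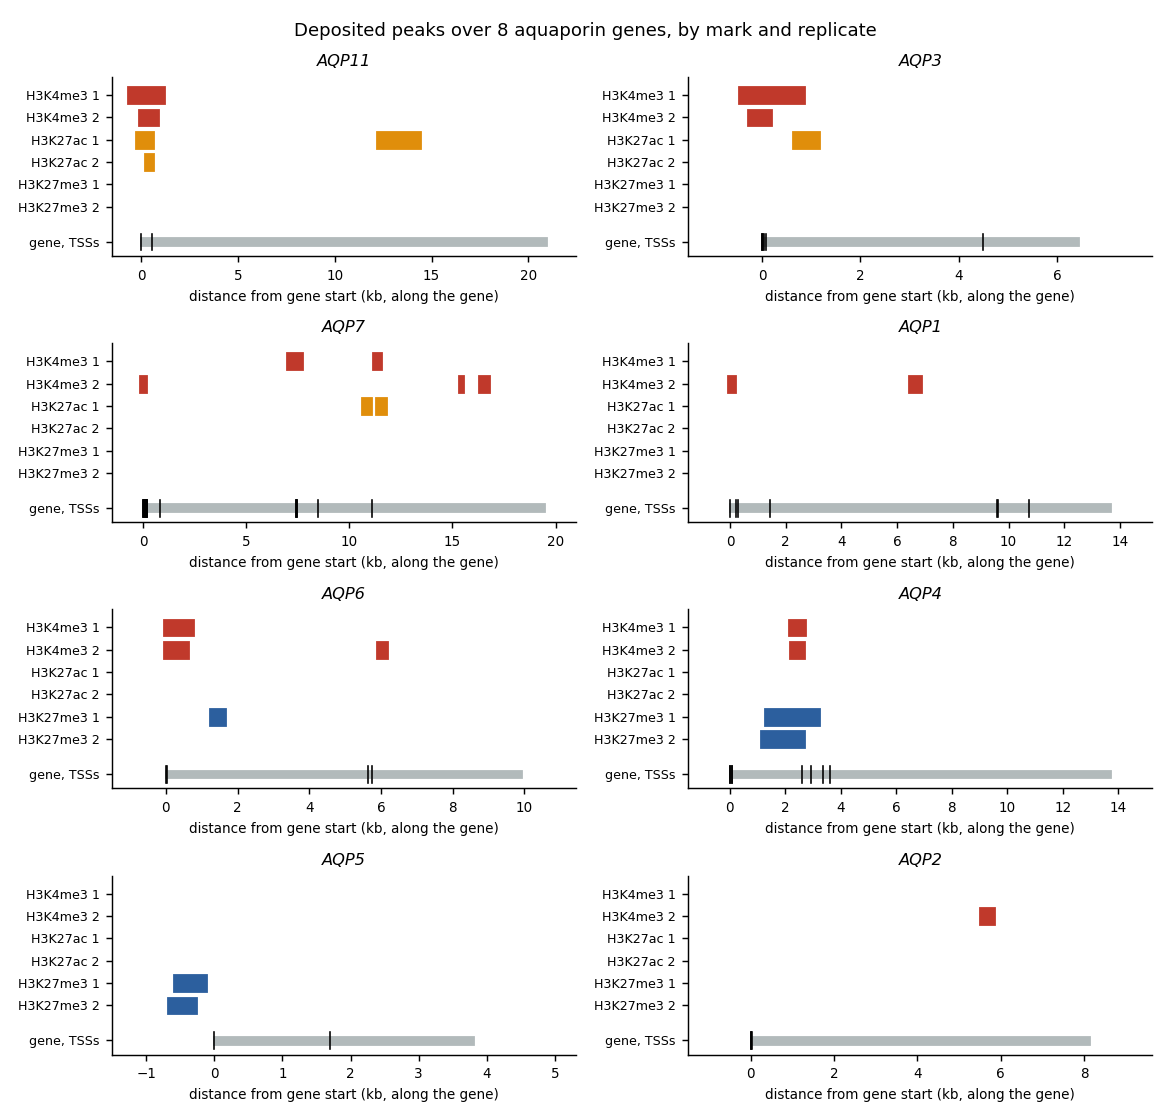
Deposited peaks over 8 aquaporin genes as boxes, by mark and replicate, against distance from the gene start in kb along the direction of transcription. Grey bars are genes and black ticks are annotated TSSs. AQP11 and AQP3 carry H3K4me3 at the start in both replicates, AQP4 carries H3K4me3 and H3K27me3 at its internal TSSs, and the AQP7 boxes of the H3K4me3 replicates do not overlap.

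AQP4 was the one member with overlapping H3K4me3 and H3K27me3. H3K4me3 peaks lay at chr18:24442993-24443623 and chr18:24443041-24443585, and H3K27me3 peaks at chr18:24442482-24444476 and chr18:24443027-24444605. A stretch of 545 bp, chr18:24443041-24443585, was in all 4 lists. It held the start of the coding transcript ENST00000440832 at 24443154. The 4 TSSs farther upstream, from 24445653 to 24445735, had no peak of any mark within 1 kb. The nearest genes on each side differed in level, with KCTD1 at 6.14 and 6.35 and CHST9 at 0.021 and 0.0771.

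The 3 genes AQP2, AQP5 and AQP6 lie in a row on chromosome 12, on the plus strand, with gaps of 2.99 and 1.51 kb, and each showed another pattern. AQP2 had no peak near its start, and its one intragenic peak was H3K4me3 of replicate 2, at chr12:50350018-50350386. AQP5 had H3K27me3 peaks at chr12:50355067-50355547 and chr12:50354970-50355398, which ended 108 and 257 bp before its start and shared 332 bp. AQP6 had H3K4me3 in both replicates, at chr12:50360912-50361756 and chr12:50360931-50361616, with 686 bp in common and no H3K27ac.

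The AQP6 peaks covered the starts of ENST00000489786 and ENST00000551733. The start of the coding transcript ENST00000315520, at 50366730, had an H3K4me3 peak within 1 kb in replicate 2 only, at chr12:50366871-50367163. An H3K27me3 peak at chr12:50362208-50362667 lay inside AQP6 in replicate 1 only. RACGAP1, a gene of cell division, overlaps the end of AQP6 on the opposite strand and shares 137 bp of its exons. RACGAP1 had an FPKM of 39 and 45.1 and carried H3K4me3 and H3K27ac in both replicates, while FAIM2 on the other side of the row had 0.0102 and 0.0116.

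AQP7 and AQP3 are neighbours too, 38.5 kb apart on chromosome 9. The genes flanking them were higher. NFX1 had an FPKM of 9.53 and 11.2 and NOL6 had 12.7 in both libraries. AQP8 had no peak over its body, and its nearest H3K4me3 peaks were 40.4 and 41.1 kb from its start. It lies between LCMT1, at 11.4 and 12.7, and ZKSCAN2, at 2.47 and 3.07. AQP9 had 2 intragenic peaks and none at a TSS, H3K27ac of replicate 2 at chr15:58439542-58440084 and H3K27me3 of replicate 1 at chr15:58432245-58432703. Peaks of the 3 marks covered at most 14.5% of any member's body in any list.

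Genes with the same peak pattern at their TSSs give a scale for these levels. AQP11 shared its pattern, H3K4me3 and H3K27ac in both replicates and no H3K27me3, with 10092 other protein-coding genes. Their median FPKM was 11.8, and 92.9% had at least 1 in both libraries. AQP11 was above 11.1% of them. AQP3 and AQP7 shared their pattern, which has H3K27ac in replicate 1 only, with 1664 genes of median 3.98. They were above 14.6% and 8.11% of those. The pattern counts a peak at any TSS of a gene, and the H3K4me3 peaks of AQP7 lay at different TSSs in the 2 replicates.

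The AQP4 pattern was shared with 855 genes of median FPKM 0.0536, of which 5.15% had at least 1 in both libraries, and AQP4 was above 23.3% of them. The AQP6 pattern was shared with 282 genes of median 0.293, and AQP6 was above 18.4% of them. The AQP5 pattern was shared with 331 genes of median 0, of which 0% reached an FPKM of 1 in each library. The pattern without any peak was shared by 2968 genes of median 0. AQP1 was the exception in direction. Its pattern, H3K4me3 in replicate 2 only, was shared with 752 genes of median 0, and AQP1 was above 83.5% of them. Their upper quartile was only 0.081, so a low level ranks high among them. The AQP1 level rested on 1.8 and 1.95 kb of aligned bases. The transcript from the main gene start, where the H3K4me3 peak lay, was listed at 0.

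**Figure D5:**
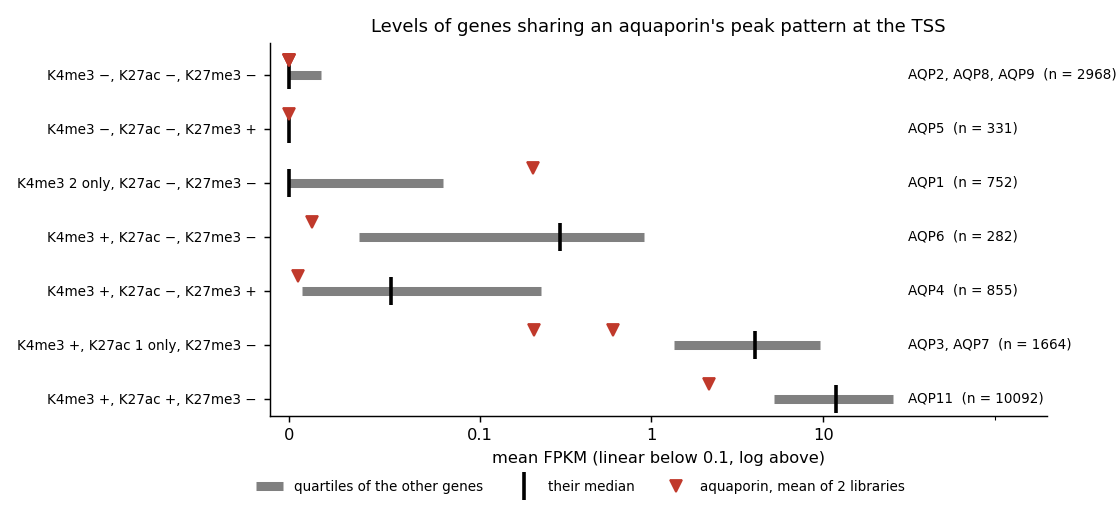
Mean FPKM of genes with the same presence or absence of peaks at a TSS as each aquaporin (grey bar, quartiles, and black tick, median, with the number of genes n) and of the aquaporin itself (red triangle), on an axis linear below 0.1 and logarithmic above. A plus sign means a peak in both replicates, at the same TSS or not, and a minus sign a peak in neither. AQP11, AQP3, AQP7, AQP6 and AQP4 lie below the lower quartile of their patterns and AQP1 lies above the upper one.

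The 3 protein-coding genes most like AQP11 were PPP1R12B, COX6A2 and LSM11, with Euclidean distances of 0.103, 0.108 and 0.112 over 8 values. Those values were the cover of the 2-kb window at the gene start in each peak list and log10(FPKM + 1) in each library, among genes with the same peak pattern. Their FPKM was 2.17 and 1.96, 2.45 and 2.43, and 2.45 and 2.32.

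The 4 human aquaporin genes outside the 10 were as low. MIP, the lens aquaporin, had an FPKM of 0.112 and 0.182, and AQP10, AQP12A and AQP12B were listed at 0. MIP had H3K4me3 and H3K27ac peaks at a TSS in both replicates, but only at starts of transcripts with a retained intron or without a defined coding sequence. The start of its coding transcript ENST00000652304, at 56848441, had no peak of any mark within 1 kb.

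Related genes were looked at in fixed lists, where a gene passed if it reached an FPKM of 1 in each library, as did 58.8% of all protein-coding genes, whose median was 3.32. All 18 genes of vesicle trafficking, which carry channels to and from the membrane, passed, with a median FPKM of 23.1 and HSPA8, a chaperone found with AQP2, the highest at 930 and 832. Of 12 genes of vasopressin signalling, 9 passed, with a median of 11.6. GNAS, the stimulatory G protein subunit, was highest at 579 and 573. The receptor AVPR1A was listed at 0, and the V2 receptor AVPR2 had 0.278 and 0.56.

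Of 10 genes of the osmotic stress response, 9 passed, with a median of 20.8, and the sorbitol-forming enzyme AKR1B1 was highest at 388 and 384. Of 11 genes of glycerol handling, 9 passed, with a median of 7.59. The lipase PNPLA2 was highest at 47.7 and 45, and GK2, a testis glycerol kinase, was listed at 0. Of 9 genes of urea and peroxide handling, 4 passed, with a median of 0.074. The peroxide-removing PRDX1 was highest at 486 and 686, while the urea transporters SLC14A1 and SLC14A2 and the oxidase NOX4 were listed at 0.

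Of 14 genes that are known or candidate regulators of aquaporin genes, 7 passed, with a median of 2.06. PAX8, a nephron lineage factor, was highest at 100 and 104. HNF4A, a factor of the differentiated proximal tubule, was listed at 0, as were ELF5, GRHL2 and EHF.

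The labelled cell type was checked against markers. Of 10 proximal tubule markers, 3 passed in the same way, the scaffold PDZK1 at 17.4 and 17.9, GATM at 1.91 and 2, and the glucose transporter SLC5A2 at 1.56 and 2.36. LRP2, which encodes megalin, was listed at 0 with SLC5A1, SLC22A6 and SLC22A8, and CUBN, which encodes cubilin, had 0.0334 and 0.0416. The 10 markers had a median FPKM of 0.0187. They summed to 21 and 22.4, most of it from PDZK1. Of 8 collecting duct principal cell markers, 1 passed, ST6GAL1 at 8.17 and 2.99 (3 with TPM in place of FPKM). SCNN1B and KCNJ1 were listed at 0. This list had a median of 0.226 and a sum of 10.8 and 5.1. Its median was thus above that of the proximal tubule list, and its sum was below. Of 8 markers of tubular epithelial lines, 7 passed, with a median of 89.5 and a sum of 1317 and 1696. VIM, the mesenchymal filament vimentin, was highest at 709 and 1133. The epithelial cadherin CDH1 did not pass, at 0.21 and 0.283, and had peaks of all 3 marks at a TSS in both replicates. The proximal tubule list thus held genes that passed as well as genes at 0, and the part of cell identity in the aquaporin levels was not tested.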

How the data were processed

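RNA-seq and ChIP-seq of HK2 cells were used. RNA reads were mapped by the authors using HISAT2, to hg19 according to the paper. Transcript abundance came from StringTie 1.3.3 on GENCODE 27 per the file headers. Its coordinates are those of GRCh38, which differs from the build that the paper names. The deposited values are FPKM, TPM and coverage. Gene FPKM was the sum over transcripts. StringTie divides reads among overlapping transcripts, so the shares of single transcripts are estimates. Replicates of ChIP-seq were processed separately by the authors, using Bowtie2 on hg19 and then MACS2. The deposited peaks are limits with no score. Versions of these tools are not given in the sources used here.

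Genes were joined by Ensembl identifier to GENCODE 44 mapped to GRCh37, which gave TSSs and gene bodies. A peak counted at a TSS if it overlapped the bases within 1 kb of it. Aligned bases were coverage multiplied by transcript length. The pseudocount for log10 was 1. Overlap code was tested on simulated data. Python 3.11.15, numpy 2.4.6, pandas 2.3.3 and matplotlib 3.10.9 were used.

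The members and gene lists were chosen with earlier results of these data known. Named genes were the 10 members, the other aquaporins, overlapping and nearest protein-coding genes, the highest gene of each list and those at 0, and the 3 genes most like AQP11. AVPR2, CDH1, CUBN, GATM and SLC5A2 were named after their values were seen. Some genes of the lists are not reported here by name. Alternatives were TPM, other thresholds and windows, coding transcripts only, wider peaks, either replicate, and leaving out each library or replicate.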

Additional observations from a re-analysis of the deposited data

How the results depend on the processing

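No paired analysis was possible because the comparisons come from no test. With 10 genes, 1 condition and 2 samples per assay, the counts are descriptions, and peaks without height give no depth. The count of members reaching an FPKM of 1 in each library, 1 of 10, became 2 with TPM in place of FPKM or at a threshold of 0.5, by the addition of AQP3, and 0 at a threshold of 5. It was 1 without either library and with coding transcripts only. The log10(FPKM + 1) difference between AQP11 and AQP3 was 0.294, and 0.507 with a pseudocount of 0.1, by the construction of that scale. Members with a mean FPKM above 0 numbered 6, and 4 with a mean of at least 0.1.

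H3K4me3 at a TSS in both replicates, 5 of 10, became 3 with the annotated gene start as the only TSS and 3 with peaks of at least 500 bp only, and ranged from 5 to 6 without one replicate. H3K27ac, 1 of 10, became 3 with peaks of either replicate and 0 with peaks of at least 500 bp only, and ranged from 1 to 3 without one replicate: leaving out replicate 2 added AQP3 and AQP7. H3K27me3, 2 of 10, became 1 with the gene start only and 1 with peaks of at least 500 bp only, and was 2 without either replicate. Of 39 alternatives to counts of members, 29 stayed within 1.5 times. With coding transcripts only, mean FPKM went from 0.6 to 0.416 for AQP3, from 0.207 to 0.12 for AQP7, from 0.205 to 0.131 for AQP1 and from 0.012 to 0 for AQP6, which turned the order of AQP7 and AQP1. Collecting duct markers passing went from 1 to 3 with TPM.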
